A study of Homo sapiens with 30 samples.

Results

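The cytosolic ribosomal protein genes were followed in 5 breast cancer cell lines treated with BMP7, a secreted ligand of the TGF-beta superfamily. A probe was taken when its gene name was RPL or RPS followed by the number of a ribosomal protein, with the kinases named RPS6K left out. This gave 200 of the 41000 probes on the array. They carried 82 of the 30484 gene names on it, of which 49 belonged to the large subunit (RPL, 125 probes) and 33 to the small subunit (RPS, 75 probes). The rule used the names alone and no measured value. RPLP0, RPLP1, RPLP2, FAU and a few other subunit genes have names outside the rule and were kept as a separate list.

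The ribosome is the particle that translates mRNA into protein. Its small subunit reads the mRNA and its large subunit forms the peptide bonds, and each ribosomal protein is needed in about the same number of copies. Most of their mRNAs are long-lived, very abundant, and start with a C followed by an unbroken run of pyrimidines, the 5′ terminal oligopyrimidine (TOP) tract, through which growth signals control their translation. Change in ribosomal protein synthesis is therefore often a change in how the mRNA is translated, which an array of total mRNA does not measure. A few members have been linked to other roles, among them RPL5 and RPL11, which bind MDM2, and RPS6, whose phosphorylation is a common readout of growth signalling.

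Each of the 30 two-colour arrays compared BMP7-treated cells (labeled with Cy5) with vehicle-treated cells (labeled with Cy3) of the same line at the same time, 30 min, 1, 3, 6, 12 or 24 h after treatment. The lines were HCC1954, MDA-MB-231, MDA-MB-361, T-47D and ZR-75-30, all grown on plastic and each 1 established line of its own. Each sample was a pool of 3 cultures hybridized once, and no dyes were swapped, so a single value has no replicate and includes any constant difference between the dyes at that probe. The serum content of the medium was set apart from the supplier's advice for MDA-MB-231 and for T-47D, so lines also differ in serum. The arrays lay on 13 slides, nearly always with 1 line per slide. The exception was 1 slide with MDA-MB-231 and ZR-75-30, each at 30 min and 6 h. For the other lines line and slide cannot be told apart, and the 3 T-47D arrays of 6, 12 and 24 h shared a slide that held no other array.

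Epithelial markers were present. Keratin 8 and keratin 18 were well above background in all lines. VIM was brightest in MDA-MB-231 (log2 vehicle signal 16.86), followed by HCC1954 (14.35). Among markers of other cell types, PTPRC (blood cells) was well above background on no array. COL1A1 (fibroblasts) was well above background in both channels on 23 arrays and PECAM1 (endothelium) on 9. In the vehicle channel PECAM1 was so on 6 arrays of HCC1954 (8.75) and 3 of MDA-MB-231 (4.31). ID1, a direct BMP target, was above 0 on 29 of 30 arrays. Its lowest log2 ratio was -0.35, its median 0.72 and its highest 2.62. Its relatives ID2, ID3 and ID4 were above 0 on 27, 25 and 24 arrays, and ID4 was dim in MDA-MB-231 (2.64). In T-47D at 6, 12 and 24 h ID1 was at 0.29, 0.58 and 0.84 and ID3 at 0.41, 0.24 and 0.18. At these times ID2 was at 0.21, 0.02 and -0.27 and ID4 at -0.01, 0.01 and 0.02.

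The start of the genes is shown for 7 members because a shared start is what the set is known for. These genes include some that moved most in T-47D and a relative that lacks the tract. They also include RPL14 and RPL22L1, which were among the highest and the lowest means over all lines. The sequences are from RefSeq (GRCh38.p14), each with 50 bases before the annotated start and 20 bases from it on, 5′ to 3′ on the gene's strand. The capitals mark the pyrimidine run that begins with the start C, and in RPL7L1 the letters CCGGAAG.
RPL37A, chr2:216498794-216498863, plus strand: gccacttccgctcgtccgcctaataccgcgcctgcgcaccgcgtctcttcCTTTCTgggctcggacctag
RPS19, chr19:41860205-41860274, plus strand: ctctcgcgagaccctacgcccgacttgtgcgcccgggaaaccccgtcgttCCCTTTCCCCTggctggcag
RPL21, chr13:27251508-27251577, plus strand: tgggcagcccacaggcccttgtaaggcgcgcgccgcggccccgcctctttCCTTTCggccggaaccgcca
RPS21, chr20:62387053-62387122, plus strand: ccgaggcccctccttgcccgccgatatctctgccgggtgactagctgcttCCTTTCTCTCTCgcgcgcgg
RPL14, chr3:40457289-40457358, plus strand: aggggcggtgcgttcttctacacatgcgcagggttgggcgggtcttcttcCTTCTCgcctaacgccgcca
RPL22L1, chr3:170870176-170870245, minus strand: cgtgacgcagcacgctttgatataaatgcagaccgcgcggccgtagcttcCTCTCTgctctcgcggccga
RPL7L1, chr6:42879566-42879635, plus strand: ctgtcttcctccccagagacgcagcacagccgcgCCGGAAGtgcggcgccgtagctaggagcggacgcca

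The run at the start was 6 bases long in RPL37A, RPL21, RPL14 and RPL22L1, 11 in RPS19 and 12 in RPS21, and RPL7L1 had none. Promoter windows were found for 65 of the member genes (81 windows). A start C followed by 4 pyrimidines stood in 44 of the 81 windows (54.3%), against 4.07% of all 35116 human promoter windows of the same length. The letters CTTTC within 10 bases of the start on the gene's strand, a match that overlaps the first one in part, stood in 27 windows (33.3%) against 3.10% of all. CCGGAAG, searched on both strands of the 300 bases, stood in 27 windows (33.3%) against 10.3%, and TATAA in the 50 bases before the start in 8 windows (9.88%) against 4.74%. These matches describe the letters only. A start that RefSeq places some bases from the true one would hide a tract.

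The probes of the set were bright and well measured. Of the 200 probes, 190 (78 genes) were well above background in both channels on all 30 arrays, and 177 (88.5%) belonged to the brightest 10% of the vehicle channel. Besides RPS4Y1 and RPS4Y2, which are counted here and given no level, the dim ones were RPL3L (25 arrays), RPL39L (24 arrays) and 1 of several probes each of RPS26 (10 arrays), RPL23 (28 arrays), RPL37 (8 arrays) and RPS2 (29 arrays), and 2 probes of RPL10 (8 and 0 arrays). Saturation was rare in spite of the brightness, with 5 spots on 3 probes, of RPL23A, RPS2 and RPS27. Over whole arrays, 53.8% to 68.3% of probes were well above background in both channels, and 0 to 4 features were saturated in the vehicle channel and 0 to 16 in the BMP7 channel. Ribosomal protein genes have many processed copies in the genome, and 9 probes of RPL21, RPL36A, RPL17 and RPS10 are placed in the files on another chromosome than the gene. For those, and for close relatives such as RPL10 and RPL10L, signal from a near-identical copy cannot be separated from that of the gene.

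Across the treatment as a whole, the ribosomal protein genes moved little. The median log2 ratio of BMP7 over vehicle over the set was between -0.04 and 0.09 on 27 of the 30 arrays, and the SD of those 27 medians was 0.03. The 3 other arrays were T-47D at 6, 12 and 24 h, with -0.08, -0.12 and -0.28. The median of all 30 array medians was 0.01 (SD 0.07), and it was above 0 on 18 of 30 arrays. In bulk RNA, fewer cells that express a gene and less of its RNA per cell cannot be told apart.

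**Figure D1:**
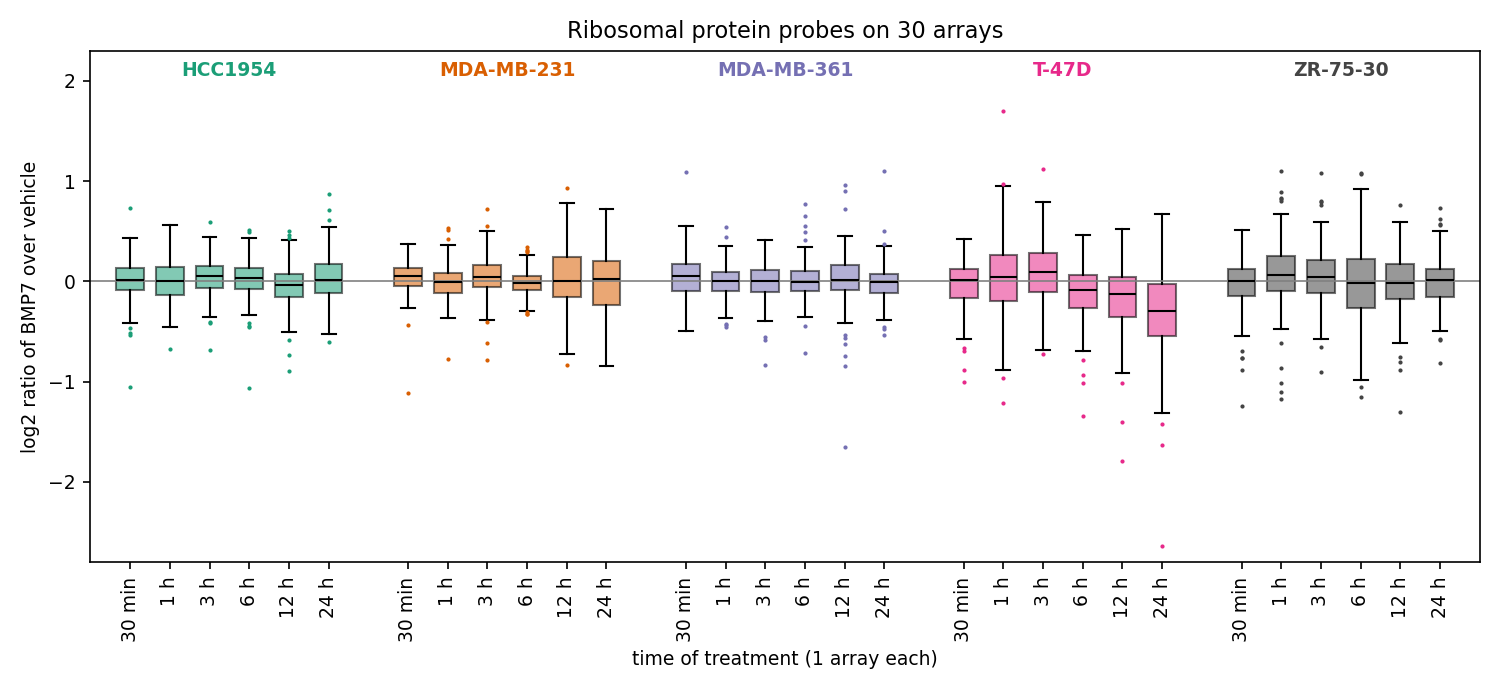
Log2 ratio of BMP7 over vehicle (vertical axis) of the ribosomal protein probes on each of the 30 arrays, by cell line and time point (horizontal axis, 198 probes without the Y-linked ones). Boxes are quartiles with the median as a line, whiskers reach 1.5 interquartile ranges and points are probes beyond them. The medians lie close to 0 except in T-47D at 6, 12 and 24 h, where they fall to -0.28.

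Single members also seldom moved far. Of 5976 measured values 42 (0.703%) were changed 2-fold or more, against 0.691% of the values of all 17752 probes well above background on 30 arrays. For the 190 members with that brightness the share was 0.388% (22 values). The interquartile range within an array was 0.14 to 0.54 with a median of 0.27, and for all well measured probes it was 0.18 to 0.70 with a median of 0.28. The set was the narrower on 19 of 30 arrays.

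With the 6 time points of a line averaged and the 5 lines taken as units, no member differed from 0 in limma (0 of 200, against 0.00976% of all probes). At an unadjusted p under 0.05 there were 53 members, or 26.5% of them, against 15.4% of all probes. Of the 80 genes with a level, 39 had a mean above 0, and the means ran from -0.26 to 0.26. The highest means were those of RPS10 (0.26), RPL26 (0.26), RPL7 (0.20), RPL14 (0.19) and RPS12 (0.16), and the lowest those of RPL37 (-0.26), RPL29 (-0.25), RPL22L1 (-0.21), RPL36 (-0.20) and RPS9 (-0.19). RPS9 had the smallest adjusted p of the set in limma (0.077). The count of 0 depended on the dye normalization, since 3 members passed after normexp background correction and loess and 138 when arrays were only scaled to a median of 0, a setting under which the median of the set ran from -0.56 to 1.70 over the arrays.

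The probes of 1 gene agreed for some of these and not for others. RPL14 is a large subunit protein, and its 3 probes had means of 0.12, 0.19 and 0.28. RPL29, also of the large subunit, had means of -0.25, -0.24, -0.23 and -0.17 on its 4 probes. For RPS9 the other probes had means of -0.04 and 0.01, and the second RPL7 probe had -0.10. The means of the 7 RPS10 probes ran from -0.15 to 0.26. The RPS9, RPL7 and RPS10 values therefore rest on a single probe each.

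RPL5 and RPL11, which form a complex with 5S rRNA, had small positive means of 0.14 and 0.15, with a limma adjusted p of 0.147 and 0.128. RPL5 was between -0.08 and 0.42 over its measured arrays, and RPL11 between -0.10 and 0.39. RPS6 had a mean of -0.08, RPL13A, often used as a reference gene, -0.03, and RPS4X, the X-linked partner of the Y-linked genes, -0.08. None of these passed the test of the mean.

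The comparison of 3 to 24 h with 30 min, with the cell line as a block, removes a dye effect that stays constant over time. It called 0 of 200 members, against 0.571% of all probes, and 27 members (13.5%) at an unadjusted p under 0.05, against 16.8% of all probes. The smallest adjusted p was that of RPL22L1, a paralog of RPL22 (change -0.40, SE 0.11, limma adjusted p = 0.073). In MDA-MB-361 its log2 ratio was -0.24, -0.43, -0.59, -0.72, -0.74 and -0.53 in the order of the time points, and in ZR-75-30 it was 0.25, 0.26, -0.66, -0.66, -0.80 and -0.39. In HCC1954 it stayed between -0.08 and 0.21. Its highest line mean was that of T-47D, 0.61 above the mean of MDA-MB-361, so the lines differed. RPL22L1 was thus lower in BMP7-treated cells on all 6 arrays of MDA-MB-361 and from 3 h on in ZR-75-30, while RPL22 itself was between -0.23 and 0.43 in those lines on its best measured probe.

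Vehicle-treated cells did not show a shift of the set with time in culture. From the first hour to 12 and 24 h, 0 of 200 members changed in the vehicle channel, against 0.00732% of all probes. At an unadjusted p under 0.05 there were 12 members (6%), against 9.72% of all probes, and the smallest limma adjusted p was 0.242.

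Differences between lines in the BMP7 ratio were more frequent. With time point as a block, 60 of 200 members (30%, 43 genes) differed between the lines in limma, against 15.2% of all probes, 24.7% of the probes well above background on 30 arrays and 28.6% of the brightest 10% of other probes. The share of members was thus near that of equally bright probes. The difference between the highest and the lowest line mean was 0.21 to 1.43, with a median of 0.46. The p-value here measures only the spread between time points of a line, and 14 members were called without MDA-MB-361, 32 without HCC1954 and 35 without T-47D. None was called when each array was only scaled to a median of 0 after normexp background correction, in place of the dye normalization of the scanner software.

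The direction of these differences was uneven. Of the 60 called probes, 36 (60%) had their lowest line mean in T-47D, against 30.5% of all called probes on the array, 11 had it in MDA-MB-361, 9 in ZR-75-30, 4 in HCC1954 and 0 in MDA-MB-231. The highest mean was in ZR-75-30 for 21 and in MDA-MB-361 for 21. RPS13, of the small subunit, was 0.25, 0.15, 0.28, 0.34, 0.09 and 0.07 in MDA-MB-361 over time and -0.40, -0.32, -0.16, -0.44, -0.57 and -0.48 in T-47D. The 2 lines did not overlap, and their means differed by 0.59 (limma adjusted p = 0.0034). This was 1 of 3 RPS13 probes and the only one of them to pass, and at 24 h in T-47D the 3 ran from -0.48 to 0.37. The RPL10 and RPL10L probes, of near-identical genes, had similar line means, 0.20 and 0.27 in MDA-MB-361 and -0.34 and -0.30 in T-47D.

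RPS18 and RPS3A went other ways. RPS18, of the small subunit, was between -0.21 and -0.09 on all 6 MDA-MB-361 arrays and between 0.21 and 0.51 on all 6 HCC1954 arrays, so these 2 lines did not overlap (difference of means 0.51, limma adjusted p = 0.012). RPS3A was lowest in ZR-75-30 (-0.66 to -0.04) and highest in T-47D (-0.07 to 0.36), with a difference of 0.47 (limma adjusted p = 0.029). Only 1 of 6 RPS3A probes passed, and at 24 h in T-47D the 6 ran from -0.49 to 0.36. RPS10, for which 2 of 7 probes passed, had on its best measured probe a mean of 0.45 ± 0.11 (SD, n = 6 time points) in MDA-MB-361 and 0.41 ± 0.13 in ZR-75-30, and 0.07 ± 0.32 in T-47D.

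T-47D, an estrogen receptor positive luminal line, was where the set as a whole departed from 0. In the order of the time points the median of the set was 0.01, 0.05, 0.09, -0.08, -0.12 and -0.28. At 24 h 148 of 198 measured members were below 0 (74.7%, and 75.5% of those well above background on 30 arrays), against 48.3% of all probes of that brightness and 49.1% of the brightest 10% of other probes. Both subunits took part, with medians of -0.30 for RPL and -0.26 for RPS genes. On all 3 late arrays 101 members were below 0 (50.5%, against 27.9% of the well measured probes). Above 0 on all 3 were 30 of 200 members, a lower share than the 30.4% of the well measured probes for that direction.

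At 24 h in T-47D, 13 members of 10 genes were lower by 2-fold or more and none was higher by 2-fold, while 5.1% of all probes were changed 2-fold in either direction. Among probes well above background on 30 arrays, 11 members (5.85%) and 0.784% of all were lower by 2-fold. Among the genes were RPL37A, RPL7, RPL10, RPS19, RPS14, RPS28, RPL34, RPL21 and RPL29. RPL10 entered through 2 probes that were well above background on 8 and 0 arrays, and its best measured probe was at -0.36. RPL7 entered through 1 of its 2 probes (-1.42), and the other, better measured one was at 0.15. The 24 h values also ran from -1.22 to 0.01 over the 4 RPS14 probes and from -1.17 to -0.09 over the 2 of RPS28. Over the 6 RPL34 probes they ran from -1.31 to -0.36.

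Once these values had been seen, the change in T-47D from 30 min, 1 h and 3 h to 6, 12 and 24 h was tested against the mean of the same change in the other lines. The contrast was chosen from the values it tests, so its p-values are descriptive. It called 11 probes of 10 genes lower in T-47D and 0 higher (5.5%, against 0.481% of all probes in either direction and 0.349% lower). At an unadjusted p under 0.05 there were 65 members (32.5%), against 13.1% of all probes and 19.1% of the brightest 10% of other probes. Of all 200 members 147 (73.5%) had a difference below 0, against 49.0% of all probes, and the median difference was -0.18 against 0. The median change was -0.21 in T-47D, and in the others it was -0.06 in ZR-75-30, -0.04 in MDA-MB-231, -0.02 in HCC1954 and -0.01 in MDA-MB-361.

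The called count was fragile. Without the T-47D array of 24 h it was 2, with the slide as a random block 2, and with only the first scan batch, which leaves out T-47D at 3 h, 1. Leaving out 1 other line gave 0 without MDA-MB-361, 1 without HCC1954, 3 without MDA-MB-231 and 11 without ZR-75-30. The early T-47D arrays lay on other slides than the late ones, so in this line late time and slide cannot be told apart.

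**Figure D2:**
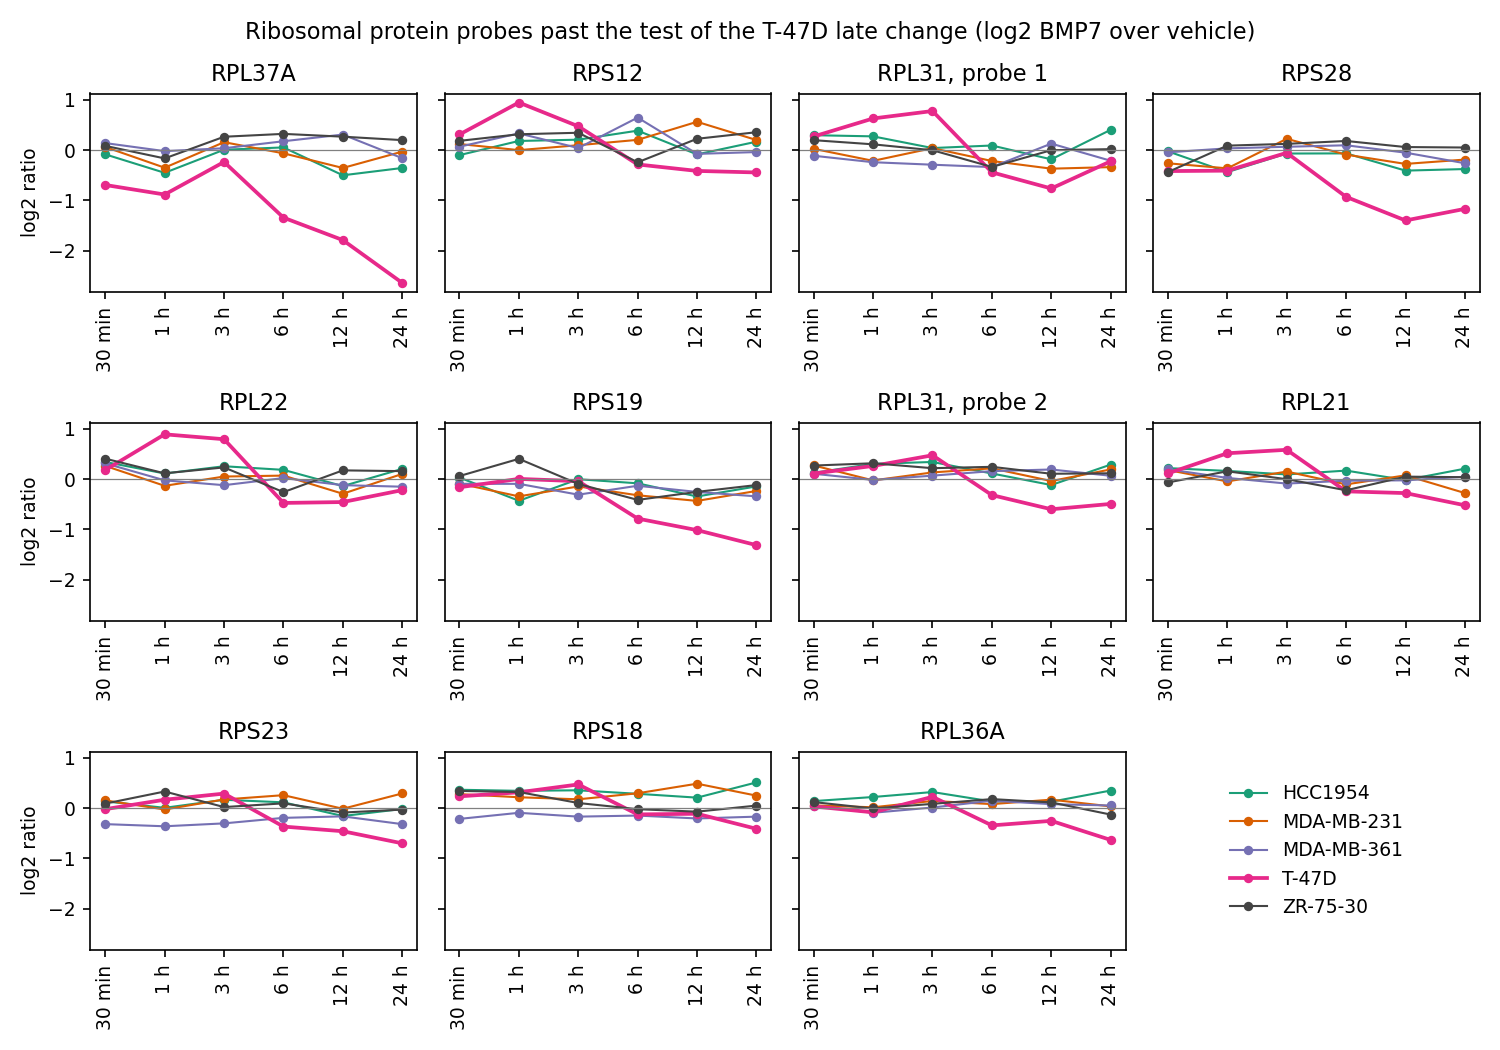
Log2 ratio of BMP7 over vehicle (vertical axis) against time (horizontal axis) in the 5 lines, for the 11 ribosomal protein probes past the test of the T-47D late change, 1 point per array. In each panel the T-47D values at 6, 12 and 24 h lie below 0 and below all 3 earlier T-47D values, and RPL37A falls furthest, to -2.64.

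RPL37A, a zinc-binding protein of the large subunit, changed most. On the probe at chr2:217071837-217072288 (hg18, plus strand) its T-47D ratios were -0.69, -0.88, -0.24, -1.34, -1.79 and -2.64. All 6 were below 0, and the late ones lay below the early ones. The late change differed from that of the other lines by -1.34 (SE 0.27, limma adjusted p = 0.031). In the other lines the same probe stayed between -0.50 and 0.32. Its second probe, at chr2:217072325-217072933, gave -0.29, 0.05, 0.23, -0.38, -0.75 and -1.63, with a difference of -0.92 (limma adjusted p = 0.084). Both probes fell with time in T-47D, and their correlation over the 30 arrays was 0.86.

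RPS19, the small subunit protein mutated in Diamond-Blackfan anemia, was measured by 2 probes that did not give the same picture. On the probe at chr19:47056705-47057029 the T-47D ratios were -0.16, 0.01, -0.04, -0.79, -1.02 and -1.31 (difference from the other lines -0.81, SE 0.16, limma adjusted p = 0.027). On the brighter probe at chr19:47057071-47064949 they were -0.07, 0.20, -0.25, -0.05, -0.02 and -0.70, with a difference of -0.08 (limma adjusted p = 0.92). Among the late times, the 24 h array was the one on which both probes were well below 0.

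RPS28, of the small subunit, went the same way on 1 of 2 probes, with -0.42, -0.41, -0.05, -0.93, -1.40 and -1.17 at chr19:8292404-8292549 (difference -0.86, limma adjusted p = 0.041), whereas the difference on the other probe was 0.13. RPL31, of the large subunit, passed on 2 of 3 probes (-0.91 and -0.71), and the third had -0.40. On its brightest probe, at chr2:100988930-100989267, the T-47D values were 0.11, 0.26, 0.48, -0.32, -0.60 and -0.49. The early values were above 0 and the late ones below.

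RPS12, a small subunit protein, also changed sign, from 0.31, 0.95 and 0.48 to -0.28, -0.41 and -0.44 (difference -1.002, SE 0.21, limma adjusted p = 0.034), at chr6:133180332-133180391. Part of its difference therefore came from early values above 0. RPS23, which lies at the decoding centre, went from -0.02, 0.17 and 0.29 to -0.37, -0.46 and -0.70 (difference -0.63, limma adjusted p = 0.022). RPS18 had -0.51 and the RPL36A probe placed on chromosome 11 had -0.49.

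The other calls came from genes with several probes. For RPL21 1 of 14 probes passed, with a difference of -0.66, and the differences of the 14 ran from -0.66 to 0.06, although all 14 were below 0 at 24 h, from -1.14 to -0.13. For RPL22 1 of 4 probes passed with -0.85, and the highest of the 4 had 0.11. At 24 h in T-47D the 4 RPL22 probes ran from -0.22 to 0.30, so the -0.85 does not stand for a ratio far below 0. With 1 probe per gene, 5 of 82 genes were called.

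Not every member was lower. RPL5 and RPL4 were among the genes above 0 late in T-47D. At 6, 12 and 24 h RPL5 had 0.21, 0.34 and 0.24 on its best measured probe, with 0.03 on the other at 24 h, and RPL4 had 0.20, 0.35 and 0.15. Neither gene passed the test of the late change.

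The ratio was also split into 2 channels, with the BMP7 channel taken as the quantile-normalized vehicle signal plus the centred log2 ratio. Relative to the mean of the early T-47D arrays, the median member of the vehicle channel was at 0.06, 0.14 and 0.03 at 6, 12 and 24 h and that of the BMP7 channel at -0.07, -0.07 and -0.28. On this scale the lower ratio at 24 h lay mostly in the BMP7 channel, at 6 h in both channels and at 12 h more in the vehicle channel. Channels also moved between arrays elsewhere. MDA-MB-231 at 6 h was at -0.15 in the vehicle channel and -0.22 in the BMP7 channel, relative to its own early arrays. The BMP7 channel was not normalized on its own, so this split depends on the normalization of the vehicle channel.

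Genes with and without the pyrimidine tract were set side by side as a description. Among the 43 genes with a start C and 4 pyrimidines the median T-47D ratio at 24 h was -0.40, and 34 had a late difference below 0. Among the 20 genes with a promoter window and no such start it was -0.14, and 16 had a late difference below 0. The median late difference was -0.20 and -0.08. RPL37A, RPS19 and RPL21, whose starts are printed above, belong to the first group, as does RPL14, which was at 0.09 at 24 h.

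Other lists of the translation apparatus did not all follow. In T-47D at 6, 12 and 24 h the other subunits of the cytosolic ribosome (16 probes) had medians of -0.16, -0.11 and -0.26, and the mitochondrial ribosomal proteins (107 probes), which build a separate ribosome inside mitochondria, had -0.09, -0.15 and -0.27. The translation factors and other TOP mRNAs (51 probes) had medians of 0.16, 0.21 and 0.15, and genes of ribosome assembly and rRNA synthesis (52 probes) 0.10, 0.12 and 0.10. These medians are over probes, so genes with several probes weigh more. By gene, on the best measured probe, the translation factors and other TOP mRNAs were split at 24 h. EIF3S5 (-0.55), BTF3 (-0.50), EEF1B2 (-0.38) and TPT1 (-0.20) were below 0, and EEF1A1 (0.86), EEF1D (0.53), EIF3S6 (0.49) and EIF4B (0.43) above. The brightest 10% of other probes stayed near 0, with 0.01 at 24 h.

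Some probes of these lists passed the same late test. It called 1 of 16 other subunits (6.25%), RPL36AL (-0.44), and 2 of 107 mitochondrial ribosomal proteins (1.87%), MRPL20 (-0.60) and MRPL21 (-0.77). Of the translation factors it called 0 of 51, and of the assembly genes 1 of 52 (1.92%), NOLA3 (-0.47). All these calls were lower in T-47D. Among the members the share was 5.5%, and among all probes 0.481% in either direction. The share of the other subunits rests on 1 probe. EEF1A1, the elongation factor that brings tRNA to the ribosome and itself a TOP mRNA, was at 0.48, 0.76 and 0.86 at the 3 late times. Its ratios at 30 min, 1 h and 3 h in T-47D were 0.24, 0.61 and -0.06. EEF2, which moves the ribosome along, was at -0.48, 0.03 and -0.37 early and at 0.11, 0.50 and 0.33 late. Neither EEF1A1 nor EEF2 passed the test (limma adjusted p = 0.49 and 0.56). Other genes of the same list were below 0 at the late times, among them EEF1B2 (-0.45, -0.53 and -0.38) and EIF3S5 (-0.16, -0.19 and -0.55).

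**Figure D3:**
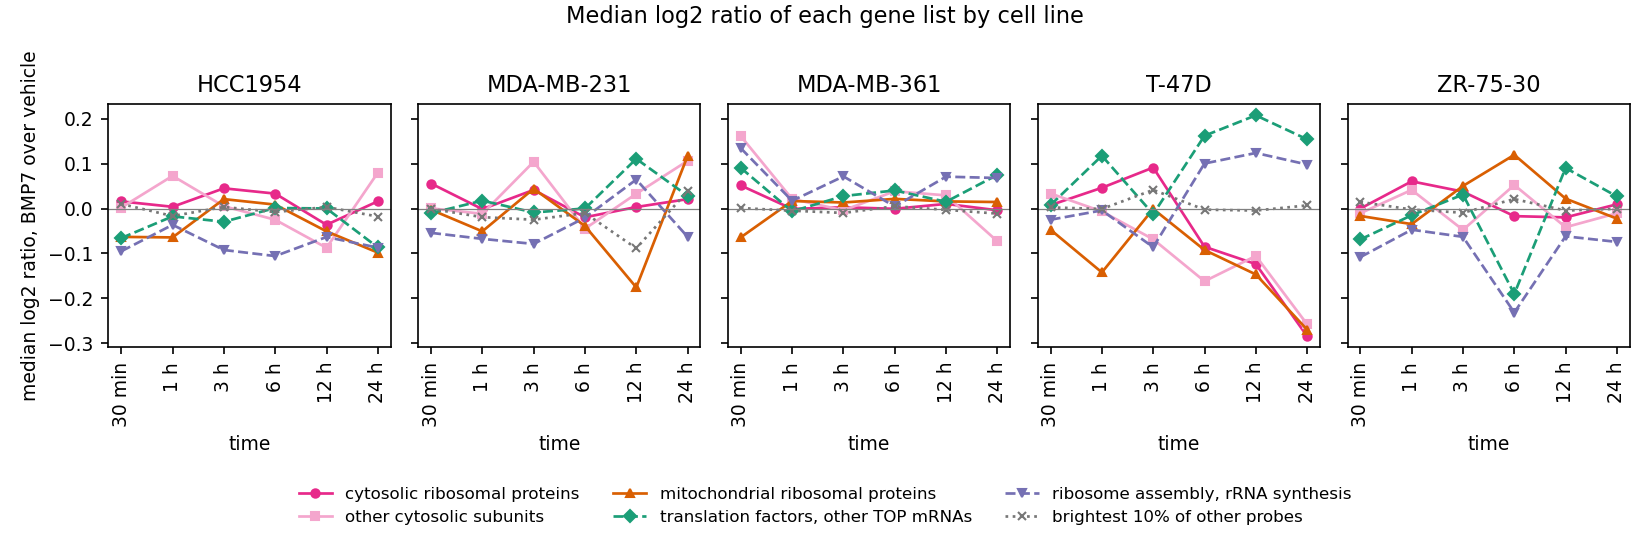
Median log2 ratio of BMP7 over vehicle (vertical axis) of 6 gene lists over time (horizontal axis) in each cell line, 1 array per point. In T-47D the cytosolic and mitochondrial ribosomal proteins and the other cytosolic subunits decline to between -0.26 and -0.28 at 24 h. The medians of translation factors and assembly genes lie above 0 from 6 h on. Medians are over probes, so genes with several probes weigh more.

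The coherence of the set lay largely in the late T-47D arrays. Over 30 arrays the mean Pearson correlation between 2 member probes was 0.105 (180 probes measured on all arrays, 16110 pairs), against 0.000258 for all probes, 0.00149 for the well measured ones and 0.0124 for the brightest 10% of other probes. Without the T-47D array of 24 h it was 0.051, and without those of 6, 12 and 24 h it was 0.023. The mitochondrial ribosomal proteins had 0.153 over 30 arrays and 0.0998 without the late T-47D arrays. These are descriptions over arrays that share slides, cell lines and a dye orientation.

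By line, over 6 arrays each, the mean correlation was 0.217 in T-47D, 0.048 in HCC1954, 0.040 in ZR-75-30, 0.032 in MDA-MB-231 and 0.023 in MDA-MB-361. Members were hardly more alike within the large subunit (0.107) or the small subunit (0.106) than over the whole set. Probes of the same gene agreed better, with a mean of 0.497 (239 pairs) against 0.0987 for probes of different genes (15871 pairs). Without the late T-47D arrays these were 0.400 and 0.0172.

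**Figure D4:**
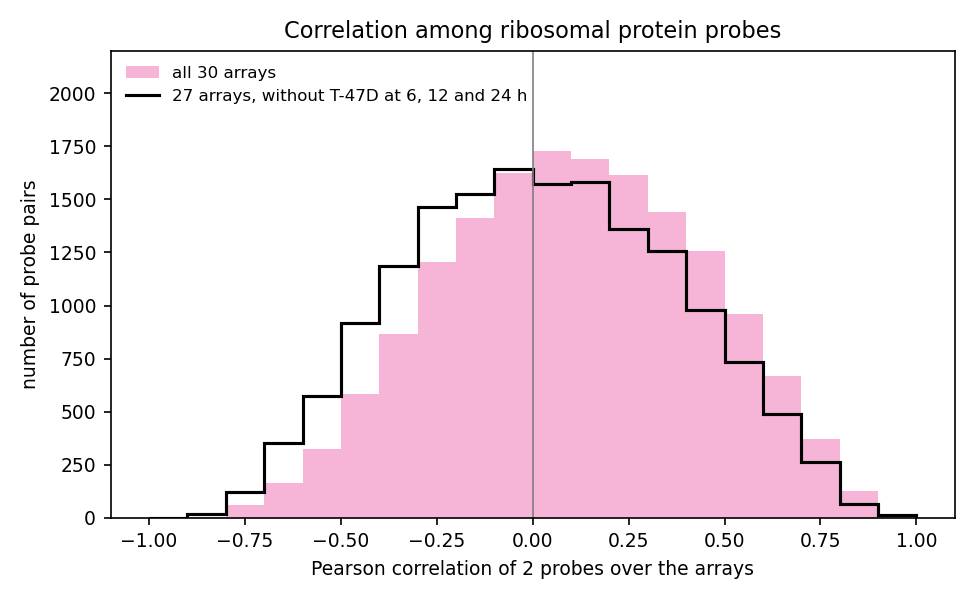
Number of probe pairs (vertical axis) by their Pearson correlation over the arrays (horizontal axis, steps of 0.1) among the ribosomal protein probes, over all 30 arrays (filled) and over the 27 arrays without T-47D at 6, 12 and 24 h (line). Above 0 lie 61.3% of the pairs over 30 arrays and 51.6% without the late T-47D arrays.

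RPS21 was the gene most like the rest, with a mean correlation of 0.28 with the other members, followed by RPL37A (0.27) and RPL31 (0.26). Least like the rest were RPL7L1 (-0.10), RPL4 (-0.10) and RPS3A (-0.09). RPS21, which lies on the small subunit, had T-47D values of -0.33, -0.20, 0.21, -0.38, -0.63 and -0.71. Its start is also printed above, beside that of RPL7L1, which has no tract.

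In vehicle-treated cells a smaller share of members than of other probes passed the test of a line difference. Line means differed by at least 2-fold with a limma adjusted p under 0.05 for 88 of 200 members (44%, 52 genes), against 63.2% of all probes. Among probes well above background in the vehicle channel on all arrays it was 42.9% of members (82 of 191) against 75.8%. The median difference between the highest and the lowest line was 0.95 for members and 1.52 for those well measured probes, in log2 units. The p-value rests on the spread between time points. With the 75th percentile scaled instead of all quantiles 142 members passed, and without the 2-fold minimum 174 (against 72.9% of all probes).

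MDA-MB-361 had the lowest levels. Of the 88 probes, 60 (68.2%) were lowest in MDA-MB-361, against 23.5% of all called probes. Relative to the mean of the 5 lines the median member was at -0.33 in MDA-MB-361 (167 of 190 below), -0.08 in HCC1954, 0.12 in T-47D, 0.16 in ZR-75-30 and 0.22 in MDA-MB-231. The medians of well measured non-members were between -0.05 and 0.04. With the 75th percentile of each array set equal instead of all quantiles, the members were at -0.53, -0.27, 0.34, 0.24 and 0.30, so the order of the 3 upper lines changed and MDA-MB-361 stayed lowest. The MDA-MB-361 arrays lay on slides that held no other line, so line and slide cannot be told apart for it here either.

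RPL39L, a paralog of RPL39 known from testis, differed most. Its log2 vehicle signal was 12.62 ± 0.13 (SD, n = 6 time points) in HCC1954, 11.74 ± 0.19 in T-47D, 11.34 ± 0.14 in MDA-MB-231 and 10.61 ± 0.09 in ZR-75-30, and it was not well above background on any of the 6 MDA-MB-361 arrays. These 4 lines did not overlap with MDA-MB-361. Against the lowest signal of probes well above background in that line, the signal was at least 293-fold higher in HCC1954, 159-fold in T-47D, 121-fold in MDA-MB-231 and 72.7-fold in ZR-75-30. RPL39 itself was also lowest in MDA-MB-361, with 14.37 ± 0.12, and highest in ZR-75-30, with 16.03 ± 0.19.

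**Figure D5:**
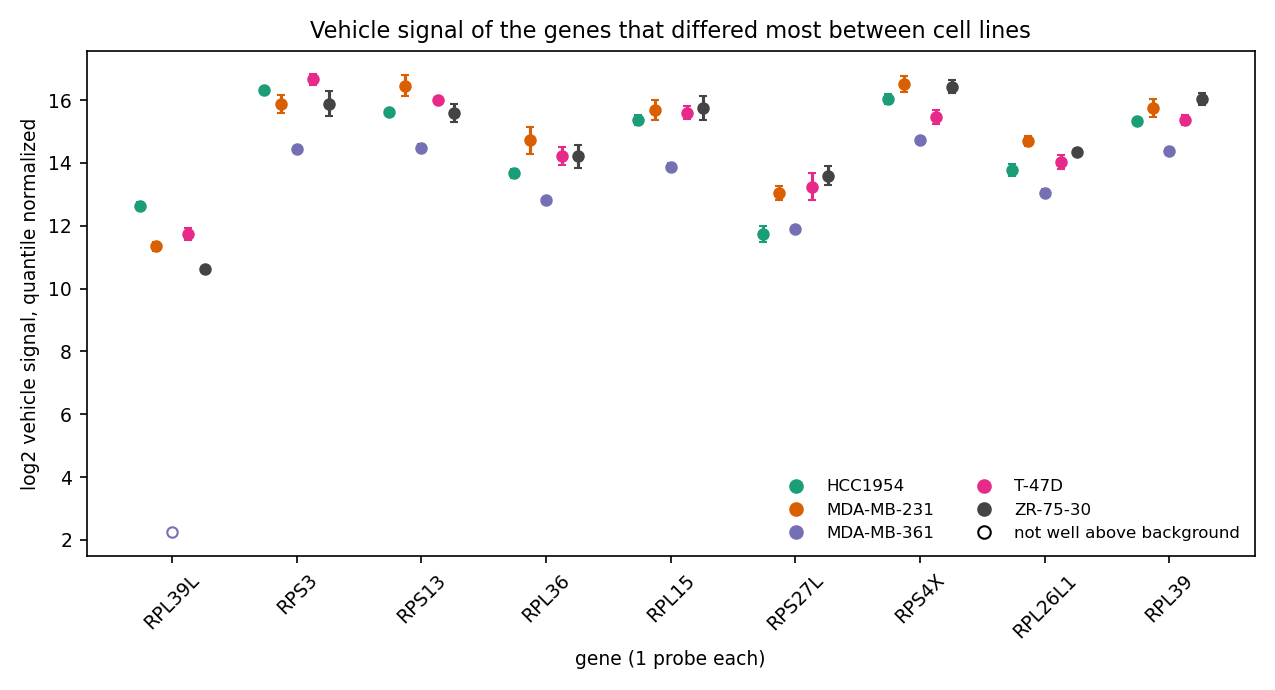
Log2 vehicle signal (vertical axis, mean and SD over the 6 time points) in the 5 lines of 9 member genes chosen for a large difference between lines (horizontal axis), 1 probe per gene. RPL39L is not well above background in MDA-MB-361 (open circle, at 2.25), and 8 of the 9 genes are lowest in that line.

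The other genes shown but 1 were lowest in MDA-MB-361 too. RPS3, a protein at the mRNA entry of the small subunit that has also been tied to DNA repair, was at 14.46 ± 0.06 in MDA-MB-361 and 16.66 ± 0.17 in T-47D, a difference of 2.21. RPS13 differed by 1.99, RPL36 by 1.89, RPL15 by 1.88, RPS4X by 1.77 and RPL26L1 by 1.67. RPS27L, a p53-responsive paralog of RPS27, was the exception among the 9, with its lowest mean in HCC1954 (11.73 ± 0.26), close to 11.89 ± 0.10 in MDA-MB-361, and its highest in ZR-75-30 (13.59 ± 0.30).

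The other paralogs varied in their own way. RPL22L1 was lower in HCC1954 (13.71 ± 0.37) and MDA-MB-361 (13.83 ± 0.17), which did not differ beyond their spread, than in MDA-MB-231 (15.01 ± 0.37), ZR-75-30 (15.18 ± 0.25) and T-47D (15.33 ± 0.46), which overlapped with each other. RPL7L1, a factor of large subunit assembly, ran from 11.90 in ZR-75-30 to 13.02 in MDA-MB-231. RPL3L, the paralog of striated muscle, was dim in every line, between 5.18 and 6.20. RPL10L was bright and showed no line difference past the test, from 13.66 to 13.97 (limma adjusted p = 0.74), but RPL10L is known as a testis gene nearly identical to RPL10, and the share of RPL10 signal on this probe was not tested.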

How the data were processed

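Total RNA of vehicle-treated (Cy3) and BMP7-treated (Cy5) cells was hybridized to 30 Agilent Whole Human Genome arrays, 1 per cell line and time point, with 3 cultures pooled per sample. Per the file headers, Feature Extraction 9.5.1.1 made the deposited log10 ratios and the processed intensity of both channels, background corrected and dye normalized, with probe positions on hg18. A matrix with the log2 ratios of the authors served as an alternative. After removal of control spots and of those marked as outliers, log2 ratios were averaged per probe and centred on the median of the array. The vehicle channel was quantile normalized on the log2 scale. The number of arrays limits the precision.

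Probes were tested over the whole array with limma 3.58.1 in R 4.3.3, at an adjusted p under 0.05 by Benjamini-Hochberg (for the vehicle levels also 2-fold). The fits tested the mean ratio over the 5 lines, 3 to 24 h against 30 min, and any difference between lines in the ratio and in the vehicle signal, and the vehicle change over time. Each fit was tested on simulated data. Levels, correlations and figures were made with Python 3.11.15, pandas 2.3.3, numpy 2.4.6 and matplotlib 3.10.9. Of the probes 180 matched RefSeq under the same symbol by accession.

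Genes named were the 5 highest and 5 lowest means, the 10 largest vehicle differences between lines among those past the threshold, up to 10 members past each other fit, the 3 highest and 3 lowest mean correlations, the paralogs with the genes they resemble, and 7 members with a known role, each read from its best measured probe. Members named outside this rule, among them all in the T-47D late test, were chosen after their values were seen. A gene that the rule gave is not reported here and stays in the counts over the set. The members and lists were chosen with earlier results of these data known. Alternatives were normexp (offset 50) with loess or median scaling, the deposited matrix, filters on background and saturation, 1 scan batch, 1 probe per gene, batch or slide terms, and leaving out lines or arrays.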

Additional observations from a re-analysis of the deposited data

Results flagged for a closer look

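The BMP7 log2 ratio of 13 named genes differed between the cell lines in the limma test across all probes. Over the whole set 30% of members passed this test, against 15.2% of all probes and 28.6% of the brightest 10% of other probes. The values are the highest minus the lowest line mean on the best measured probe of the gene, and for RPL37, RPS13 and RPS3A, which have several probes, no other probe passed. With the highest mean in MDA-MB-361 and the lowest in T-47D these were RPL10 (0.54), RPL10L (0.57), RPL13A (0.36), RPL36 (0.31), RPS10 (0.39) and RPS13 (0.59). RPL3 (0.37) was lowest in HCC1954 and RPS3 (0.38) in T-47D. RPL22L1 (0.61), RPS18 (0.51) and RPS27 (0.34) were lowest in MDA-MB-361, and RPL37 (0.76) and RPS3A (0.47) in ZR-75-30.

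The change of 11 probes from the early to the late time points in T-47D differed from that of the other lines, in a test chosen after the values were seen. The differences were -1.34 for RPL37A, -1.002 for RPS12, -0.91 and -0.71 for 2 probes of RPL31, -0.86 for RPS28, -0.85 for RPL22, -0.81 for RPS19, -0.66 for RPL21, -0.63 for RPS23, -0.51 for RPS18 and -0.49 for RPL36A. All 3 late T-47D arrays lay on 1 slide of their own, so slide and late time cannot be told apart in this line.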

How the results depend on the processing

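With normexp background correction followed only by scaling of each array to a median of 0, 138 members passed the test of the mean ratio in place of 0, 0 that between lines in place of 60, and 0 the T-47D late test in place of 11. Under this setting the median log2 ratio of the set was 0.43 in place of 0.01, the mean correlation 0.720 in place of 0.105, and the T-47D median at 24 h -0.56 in place of -0.28. With normexp and loess, 3 members passed the test of the mean and 6 the T-47D late test. With the deposited matrix the mean correlation was 0.158 and the T-47D median at 24 h -0.38. The cause was not tested. From 30 min to 3 to 24 h, 1 member passed with both channels well above background, 1 without ZR-75-30 at 6 h and 2 with 1 h counted with 30 min. Between lines 28 of 82 genes passed with 1 probe per gene, and leaving out each line gave 14 to 66. In the vehicle channel 142 passed with the 75th percentile scaled, 29 of 82 genes with 1 probe per gene, and 174 with the adjusted p alone. The T-47D late test, added after seeing the data, called 1 in the first scan batch, 2 without T-47D at 24 h, 2 with the slide as a random block, 5 with 1 probe per gene, and 0 to 11 with a line left out. The mean correlation was 0.022 to 0.125 with a line left out, 0.051 without T-47D at 24 h and 0.023 without T-47D at 6 to 24 h, both added after seeing the data. The vehicle change over time called 0 in all 13 alternatives. No paired analysis was possible because each line and time point has 1 array and so no replicate to pair with another group, beyond the BMP7 and vehicle cells paired on each array. With 1 difference per cell line the test from 30 min to 3 to 24 h again called 0. Signal over background limits few members here, since 190 of 200 were well above background on every array.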

Other observations

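Probes of 1 gene differed in how closely they moved together. The most probed member was RPL21, a large subunit protein with 14 probes, and their mean correlation over the 30 arrays was 0.52. For RPL22 (4 probes) it was 0.30 and for RPS19 (2 probes) 0.35. The means of the 14 RPL21 probes over all arrays ran from -0.06 to 0.08.

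Among the other subunit genes outside the naming rule, GNB2L1 (RACK1, a scaffold on the small subunit) had T-47D ratios of -0.38, -0.20, -0.33, -0.16, -0.18 and -0.35 in the order of the time points, below 0 on all 6 arrays. RPLP0, of the ribosomal stalk, had 0.13, 0.19, -0.24, 0.19, 0.20 and 0.01 on its best measured probe. FAU, which is made as a fusion with a ubiquitin-like protein, had 0.17, -0.02 and -0.25 at 6, 12 and 24 h on its best measured probe. Its other probes did not give the same values, with 0.06, 0.04 and -0.44 on one and -0.46, -0.54 and -0.86 on the other.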
